A study of Mus musculus with 106 samples.

Results

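Lifr, Osmr, Il6ra, Il6st, Il1r1, Stat3, Cxcl1, Socs3 and Nfkbia encode receptors of the interleukin-6 and interleukin-1 families together with a transcription factor, a chemokine and feedback inhibitors of the same pathways. They are 9 of 21887 protein-coding mouse genes, and they were picked by name with earlier results of the same lists in view. The values below are therefore descriptions of the chosen genes, and no test was made on them. Each gene was followed through 27 deposited lists from mouse liver: 23 lists of ChIP-seq peaks and 4 lists of regions that gained accessibility in ATAC-seq, a transposase-based assay of open chromatin. A peak was counted at a gene when its centre lay in the gene body or within 10 kb of either end, in mm10 coordinates.

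Cytokines of the interleukin-6 family act on hepatocytes through receptors that share the signalling chain Il6st (gp130), which activates Jak kinases and the transcription factor Stat3 and switches on the acute-phase genes of the liver. Stat3 also induces Socs3, which blocks the receptor complex and so limits its own activation. Interleukin-1 acts through Il1r1 on NF-kappaB, which induces chemokines such as Cxcl1 and its own inhibitor Nfkbia (I-kappaB-alpha).

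The livers came from mice without hepatic Foxa2 (Foxa2loxP/loxP;Alfp.Cre, here Foxa2-KO) and from wild-type mice (WT), taken 4 h after a ligand or its vehicle. Alfp.Cre is driven by albumin and alpha-fetoprotein regulatory sequences, so it deletes in cells of the liver epithelial lineage and leaves other liver cells with Foxa2 alleles intact. The ligands were GW4064, an agonist of the bile acid receptor FXR, and GW3965 and T09 (T0901317), agonists of the oxysterol receptor LXR; the labels give oral gavage and the design text injection. Foxa2 ChIP-seq was made in WT livers with GW3965, T09 and their shared vehicle (Veh), where each label stands for 3 replicates in 1 file, and with GW4064 and its own vehicle (GW4064-Veh), with 1 sample each. FXR ChIP-seq was made with GW4064 and GW4064-Veh in Foxa2-KO and WT livers with 2 samples a group. LXRα ChIP-seq was made with "GW" (the label gives no number), T09 and Veh in 3 Foxa2-KO samples and 1 WT sample a group, and PPARα ChIP-seq with GW3965, GW4064, T09 and Veh with 2 samples a group in both genotypes. ATAC-seq compared each ligand with its own vehicle, with 2 samples an arm for GW3965 and T09 in WT livers and 3 for GW4064 in Foxa2-KO and WT livers. Mice were 8 to 12 weeks old for ATAC, Foxa2 and FXR, and 3 months old for LXR and PPAR.

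The files hold 1 list for each group, so there is no spread between replicates for any value here, and read depth is not given with the lists. The list lengths differed widely: 21245 Foxa2 peaks with GW3965 and 25318 with T09 stood against 4348 with Veh, and 22666 with GW4064 stood against 7306 with GW4064-Veh. A longer list reaches more genes, so every count at the 9 genes is set beside the percentage of all 21887 genes reached by the same list. The tissue check on Foxa2 with GW3965 found a peak at 7 of 8 hepatocyte marker genes, 0 of 8 Kupffer cell markers and 5 of 6 sinusoidal endothelial markers. It found one at 0 of 6 stellate cell, 1 of 6 cholangiocyte and 0 of 5 neutrophil markers, beside 36.9% of all genes. In that list endothelial markers were thus reached about as often as hepatocyte markers, so the check does not separate these cell types. With Veh and with GW4064-Veh the counts were 6 of 8 hepatocyte and 3 of 6 endothelial markers. All genes were reached at 12.1% with Veh and 17.8% with GW4064-Veh. In whole liver a change in cell numbers and a change within cells cannot be told apart.

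Foxa2 had a peak at all 9 genes with GW3965, where 36.9% of all genes had one, and at all but Nfkbia with T09, where 39.2% did. With Veh, the vehicle of both ligands, it had a peak at 4 of the 9 genes, Lifr, Il6ra, Cxcl1 and Socs3, against 12.1% of all genes. With GW4064 the count was 9 of 9 against 38.8% of all genes, and with GW4064-Veh it was 6 of 9 against 17.8%. The same 4 genes had a peak in all 5 Foxa2 lists, as did 9.98% of all genes. Il6st and Stat3 had one with all 3 ligands and with neither vehicle, which was so for 8.85% of all genes. The counts depend on the margin of 10 kb. With a margin of 5 kb, Foxa2 was listed at 7 of the 9 genes with GW3965, 7 with T09 and 4 with Veh. At that margin it was at 7 with GW4064 and 5 with GW4064-Veh, and the share of all genes was not taken.

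**Figure D1:**
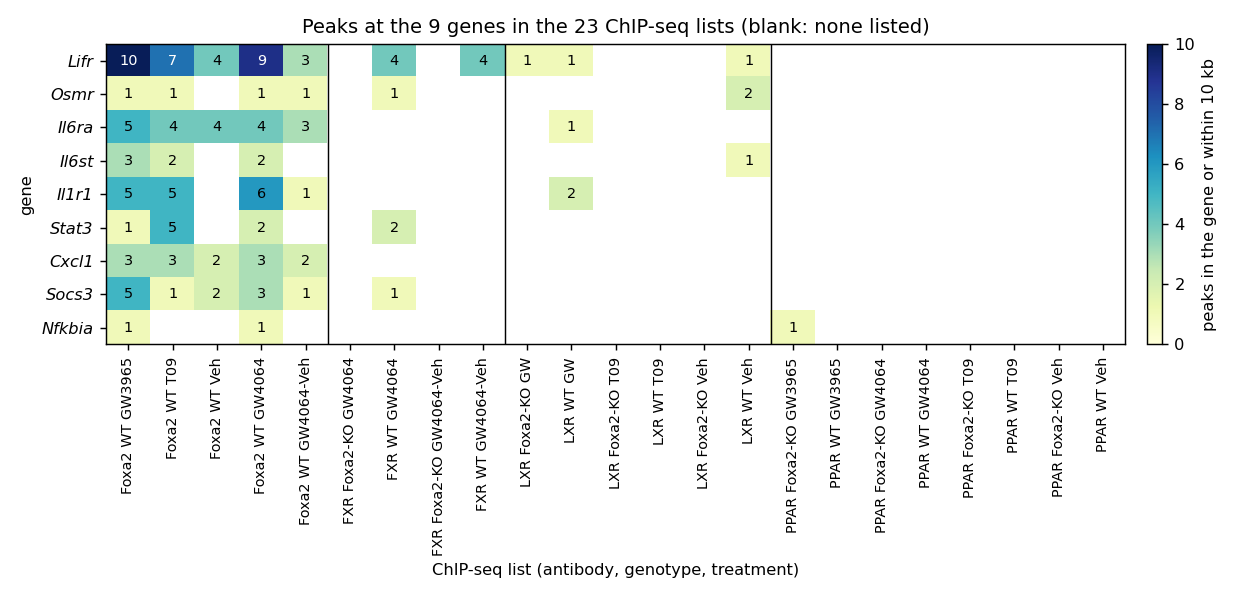
Number of peaks in each gene or within 10 kb of it (rows) in the 23 ChIP-seq lists (columns, grouped by antibody and divided by lines). Foxa2 peaks fill the left block, up to 10 at Lifr with GW3965, while the FXR, LXR and PPAR blocks hold few entries.

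Gene length enters these counts. The 6 members of 40 kb or more are Lifr, Osmr, Il6ra, Il6st, Il1r1 and Stat3, and among all genes of that length a Foxa2 peak was listed at 55.6% with GW3965, 65.6% with T09 and 22.4% with Veh, and at 63.3% with GW4064 and 33.8% with GW4064-Veh. The 3 members under 5 kb are Cxcl1, Socs3 and Nfkbia, and among all genes under 5 kb the percentages were 16 with GW3965, 17.4 with T09 and 3.81 with Veh, and 17.9 with GW4064 and 5.86 with GW4064-Veh. Cxcl1 and Socs3, at 1.88 kb and 4.26 kb, were thus listed in all 5 Foxa2 lists although short genes seldom were.

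List length also enters the difference between ligand and vehicle. The Foxa2 lists give no score, and their order was taken as a ranking, which the files do not state. When the ligand lists were shortened to the length of their vehicle list, the first 4348 entries with GW3965 reached 5 of the 9 genes (12% of all genes) and those with T09 reached 6 (11.8%), against 4 with Veh. The first 7306 entries with GW4064 reached 6 of the 9 genes (18.3% of all genes), against 6 with GW4064-Veh. At equal length the ligand lists thus added Il1r1 with GW3965, and Osmr, Il6st and Il1r1 with T09 where Socs3 dropped out; with GW4064 they added Il6st while Osmr dropped out.

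Lifr, the receptor chain for leukemia inhibitory factor, carried the most Foxa2 peaks of the 9 genes with each ligand, and as many as Il6ra with each vehicle. The gene spans 107 kb on the plus strand at chr15:7090610-7197489. It held 10 peaks with GW3965, 7 with T09 and 4 with Veh, and 9 with GW4064 against 3 with GW4064-Veh. Only 120 of the 21887 genes (0.548%) had as many as 10 with GW3965. Lifr is also the longest of the 9: per 100 kb of searched window it had 7.88 peaks with GW3965, against 20.6 for Socs3, 13.7 for Cxcl1 and 7.83 for Il6ra. Joined across the 5 lists, the peaks made 11 sites, of which 2 were in every list and 3 were in the 3 ligand lists alone.

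The site at chr15:7167903-7168503, in the gene body 27.7 kb past the nearer of 2 RefSeq start sites, was among the first entries of every Foxa2 list. It was entry 5 with GW3965, 11 with T09 and 10 with Veh, and 9 with GW4064 and 14 with GW4064-Veh. It thus stood near the top of each list. Entry numbers are places within a list, and because the lists differ in length and the Foxa2 lists carry no score, they show no change between ligand and vehicle. The other site in all 5 lists, chr15:7137551-7138063, lay 2.73 kb before the same start site and was entry 251 with GW3965, 265 with T09 and 310 with Veh, and 378 with GW4064 and 528 with GW4064-Veh. The 3 sites found with every ligand and neither vehicle lay 1.9 kb before, 0.432 kb past and 19.4 kb past that start site.

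**Figure D2:**
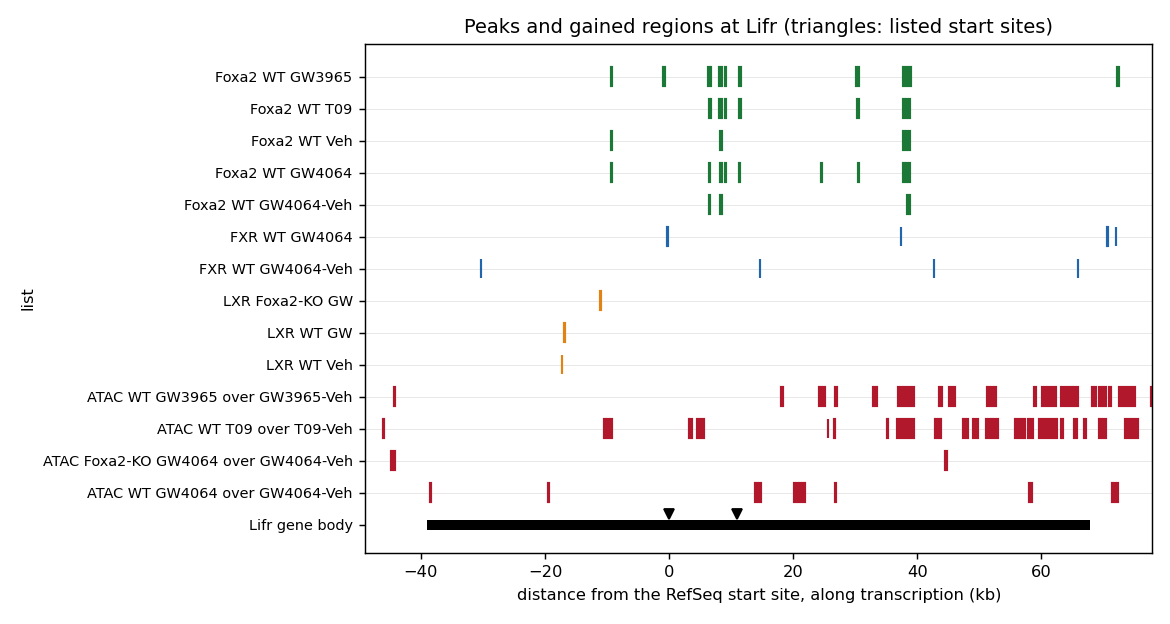
Peaks and regions at Lifr by distance in kb from the upstream of its 2 RefSeq start sites. The rightmost Foxa2 site inside the gene body is in all 5 Foxa2 lists and inside gained regions of both LXR agonists, whose 20 (GW3965) and 22 (T09) regions lie mostly in the 3′ part of the gene and its flank.

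Il6ra, the interleukin-6 binding chain, is 43.9 kb long on the minus strand of chr3:89869324-89913196. Foxa2 had 5 peaks there with GW3965, 4 with T09 and 4 with Veh, and 4 with GW4064 against 3 with GW4064-Veh. Of 6 joined sites, 3 were in every list, the highest number among the 9 genes. The site at chr3:89899089-89899416, 13.9 kb into the gene, was entry 208 with GW3965, 231 with T09 and 150 with Veh, and 477 with GW4064 and 403 with GW4064-Veh. A neighbour at chr3:89901492-89902044 was entry 371 with GW3965, 410 with T09 and 750 with Veh, and 270 with GW4064 and 573 with GW4064-Veh. Lifr and Il6ra were the 2 members with a peak among the first 500 entries, and both had one there in all 5 lists. The first 500 entries reached 1.72% of all genes with GW3965, 1.65% with T09 and 1.75% with Veh, and 1.73% with GW4064 and 1.7% with GW4064-Veh.

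Il6st, 42.8 kb on the plus strand of chr13:112464070-112506860, had 3 Foxa2 peaks with GW3965, 2 with T09 and 2 with GW4064, and none with Veh or GW4064-Veh. One of its sites, chr13:112463295-112463718, lay 0.564 kb before the start site, and another, chr13:112500513-112500949, lay 36.7 kb past it. Both were in the 3 ligand lists alone, and the earliest entry at the gene was 5447 with GW3965, 3806 with T09 and 4956 with GW4064. Osmr, the oncostatin M receptor chain, had 1 site at chr15:6884142-6884638, 10.1 kb before its start. That site was entry 8524 with GW3965 and 3498 with T09 and was not listed with Veh, and it was entry 19033 with GW4064 and 6006 with GW4064-Veh.

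Il1r1, the signalling receptor for interleukin-1, had 5 Foxa2 peaks with GW3965, 5 with T09 and none with Veh, and 6 with GW4064 against 1 with GW4064-Veh. Its 93.7 kb on chr1:40222480-40316201 (plus strand) held 10 joined sites, but 6 of these were in a single list. The site at chr1:40225099-40225391 overlapped the region of the first of its 2 listed start sites, at 40225080, and was in 4 lists, all but Veh. Stat3, on the minus strand of chr11:100886806-100939594, had 1 peak with GW3965, 5 with T09 and none with Veh, and 2 with GW4064 against none with GW4064-Veh. Its site with all 3 ligands and neither vehicle, chr11:100938089-100938521, lay 1.24 kb past the start site.

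Of the short genes, Cxcl1, a neutrophil chemokine at chr5:90891245-90893121 on the plus strand, had all its Foxa2 sites on the upstream side. It had 3 peaks with GW3965, 3 with T09 and 2 with Veh, and 3 with GW4064 against 2 with GW4064-Veh. The site chr5:90890557-90890851, 0.541 kb before the start, was entry 843 with GW3965, 2180 with T09 and 3050 with Veh, and 1139 with GW4064 and 3328 with GW4064-Veh. A site 2.33 kb before the start was also in all 5 lists, as entry 3050 with GW3965, 3893 with T09 and 3495 with Veh, and 2099 with GW4064 and 2030 with GW4064-Veh. A site 6.21 kb before it was in the 3 ligand lists alone.

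Socs3, the feedback inhibitor of gp130 receptors, lies on the minus strand of chr11:117966079-117970336. Foxa2 had 5 peaks at it with GW3965, 1 with T09 and 2 with Veh, and 3 with GW4064 against 1 with GW4064-Veh. The site in all 5 lists, chr11:117963015-117963683, lay downstream of the gene, and was entry 1194 with GW3965, 7585 with T09 and 1727 with Veh, and 3008 with GW4064 and 2117 with GW4064-Veh. In percent of the list above it, the site stood at 5.62 with GW3965, 30.0 with T09 and 39.7 with Veh, and at 13.3 with GW4064 and 29.0 with GW4064-Veh, an order that differs from that of the entry numbers. Nfkbia, on the minus strand of chr12:55489409-55492647, had 1 site, chr12:55480575-55480828, found with GW3965 (entry 16580) and GW4064 (entry 18641) and in neither vehicle list, nor with T09. The peak lay 8581 bp past the gene's end with GW3965 and 8620 bp past it with GW4064.

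**Figure D3:**
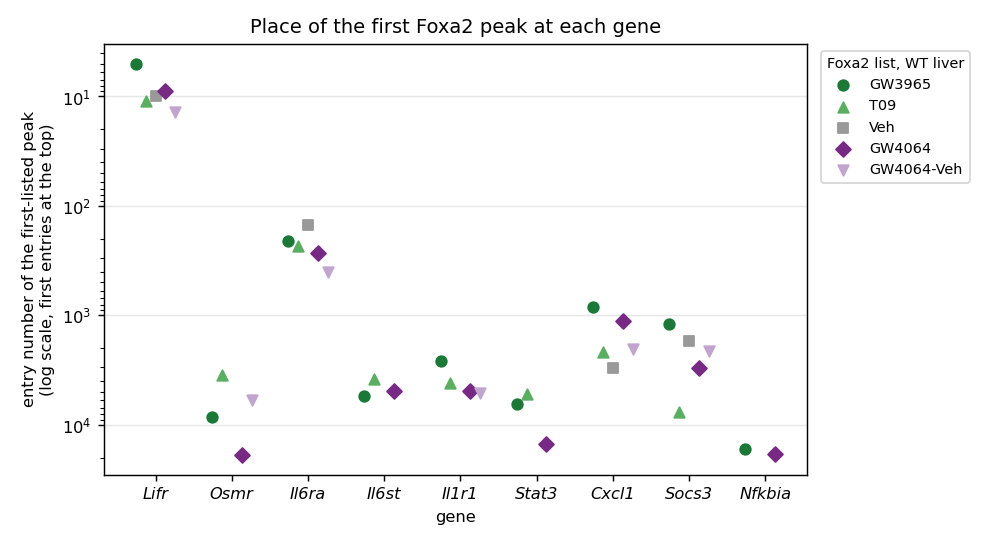
Entry number (log scale, first entries at the top) of the first-listed Foxa2 peak at each gene in the 5 WT lists. Lifr sits between entries 5 and 14 and Il6ra between 150 and 403, and a gene without a marker had no peak in that list; the lists differ in length.

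Together the 9 genes held 45 joined Foxa2 sites, of 47360 in the genome. All 5 lists shared 8 of the 45 (17.8%), as they did 6.58% of all sites, and a further 8 (17.8%, against 8.02% of all sites) were in the 3 ligand lists alone. Sites of a single list made up 37.8% at the 9 genes and 68.6% overall. The 116 Foxa2 peaks behind these sites had a median width of 266 bp.

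The nuclear receptors were listed at the 9 genes much less often, with 22 peaks in 18 lists, most of them narrow. The 12 FXR peaks had a median width of 34 bp and 3 of them reached 100 bp, the 9 LXR peaks had a median of 22 bp with none at 100 bp, and the 1 PPAR peak was 53 bp wide. With GW4064, FXR was listed at 0 of 9 genes in Foxa2-KO livers, where 6.8% of all genes had a peak, and at 4 of 9 in WT livers, where 30.5% did. With GW4064-Veh it was listed at 0 of 9 in Foxa2-KO livers (7.84% of all genes) and at 1 of 9, Lifr, in WT livers (13.5%). The Foxa2-KO files stop at a q-value of 0.015 and go on with blank lines, 7254 with GW4064 after 3901 peaks and 28147 with GW4064-Veh after 4284 peaks. The WT files hold no blank line and no q-value, so the lists may differ in their limit as well as in genotype; what that adds to the difference was not tested.

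The 4 genes with FXR and GW4064 in WT livers were Lifr with 4 peaks, Stat3 with 2, and Osmr and Socs3 with 1 each. The Socs3 peak stood apart from the others. It was 191 bp wide at chr11:117963328-117963518, was entry 1452 of 22705, and overlapped the downstream Foxa2 site in all 5 Foxa2 lists, by 79 bp with GW4064 and 65 bp with GW4064-Veh. In the first 7883 entries, the length of the GW4064-Veh list, Socs3 was the only one of the 9 genes with an FXR peak with GW4064 (14.8% of all genes had one), and Lifr the only one with GW4064-Veh. At Stat3, a 127 bp FXR peak at chr11:100916555-100916681 (entry 20929) lay wholly inside a Foxa2 peak seen with T09, and the other peak there was 18 bp wide and inside the neighbouring gene Stat5a. The Osmr peak was 2 bp wide, and 1 of the 4 Lifr peaks, chr15:7129225-7129357, overlapped the 300 bp around a start site.

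LXR with GW was listed at 1 of 9 genes in Foxa2-KO livers, Lifr, where 16.3% of all genes had a peak, and at 3 in WT livers, Lifr, Il6ra and Il1r1, where 25.5% did. With T09 it was listed at 0 in Foxa2-KO livers (7.85%) and at 0 in WT livers (14.6%). With Veh it was listed at 0 in Foxa2-KO livers (0.489%) and at 3 in WT livers, Lifr, Osmr and Il6st (9.38%). The peaks behind these counts were small, the widest of the 9 being 90 bp. The LXR peak at Il6st, chr13:112500860-112500919 with Veh, lay inside the Foxa2 site 36.7 kb past the start. PPAR was listed at Nfkbia alone, 6211 bp past the gene's end, with GW3965 in Foxa2-KO livers (1 of 9, 4.56% of all genes), and at none in WT livers (0.274%). It was at 0 of 9 with GW4064 in Foxa2-KO (4.54%) and WT livers (4.23%), with T09 in Foxa2-KO (3.64%) and WT livers (0.722%), and with Veh in Foxa2-KO (6.73%) and WT livers (4.12%).

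Accessibility gained with a ligand covered 3 of the 9 gene bodies to 25% or more, and all 3 were the short ones. Socs3 had 92.9% and Cxcl1 31.3% of the gene body inside gained regions with GW4064 in Foxa2-KO livers, and both had 0% with GW4064 in WT livers. Nfkbia had 80.6% with GW3965 in WT livers and 0% in the other 3 comparisons. At that limit the 9 genes counted 2 with GW4064 in Foxa2-KO livers (1.66% of all genes) and 0 in WT livers (1.94%), 1 with GW3965 (2.26%) and 0 with T09 (1.54%). Short genes pass it more often: among all genes under 5 kb the share was 3.99% with GW4064 in Foxa2-KO livers, 4.09% in WT livers, 4.77% with GW3965 and 2.64% with T09. Among genes of 40 kb or more it was 0.0499% with GW4064 in Foxa2-KO livers, 0.15% in WT livers, 0.233% with GW3965 and 0.35% with T09. The GW4064 list of Foxa2-KO livers stops at a q-value of 0.05, while that of WT livers gives no q-value or fold. These lists may thus differ in their limit as well as in genotype, and what that adds was not tested.

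**Figure D4:**
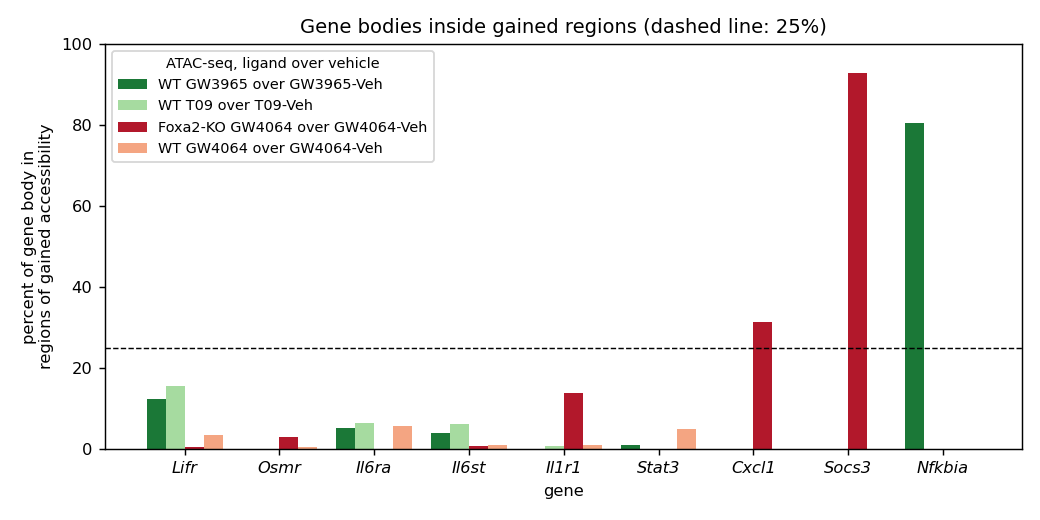
Percent of each gene body inside regions of gained accessibility (bars) in the 4 ATAC-seq comparisons of a ligand with its vehicle; the dashed line marks 25%. Socs3 at 92.9% and Cxcl1 at 31.3% stand out with GW4064 in Foxa2-KO livers and Nfkbia at 80.6% with GW3965 in WT livers.

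The coverage of Socs3 with GW4064 in Foxa2-KO livers was reached or passed by 39 of 21887 genes. It came from a single region of 4465 bp, chr11:117966380-117970844, entry 284 of 82561, with an authors' fold of 1.19 over vehicle and a q-value of 6.2e-05. A region of 3920 bp downstream, chr11:117962048-117965967, was entry 913 with a fold of 1.17, and it held the Foxa2 site of all 5 lists and the FXR peak of WT livers. The folds are small for this list, where regions of 1 kb or more had a median of 1.33 and a 10th percentile of 1.15. The gained regions were therefore wide with low folds, and they covered the places where Foxa2 and FXR were listed in WT livers.

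**Figure D5:**
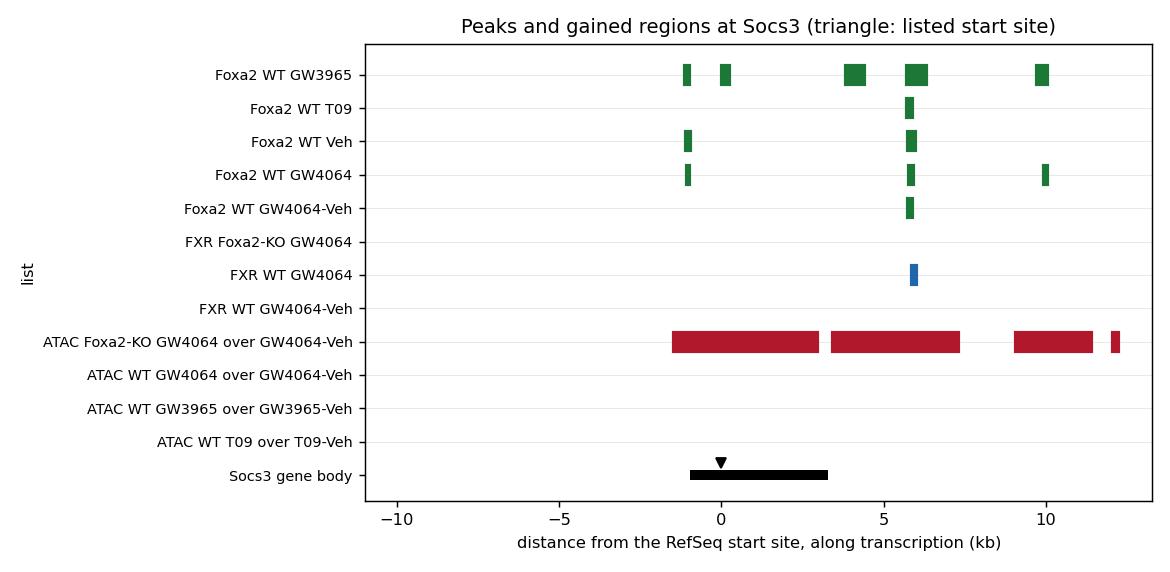
Peaks and regions at Socs3 by distance in kb from its RefSeq start site, along transcription. The FXR peak near 6 kb overlaps the Foxa2 site of all 5 lists and lies in a region gained with GW4064 in Foxa2-KO livers; the WT ATAC rows are empty.

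At Cxcl1 with GW4064 in Foxa2-KO livers, the region chr5:90890468-90891832 covered the promoter, the first part of the gene and the nearest Foxa2 site, with a fold of 1.16, a q-value of 0.0437 and entry 68519, late in the list. A region past the gene's end, chr5:90893323-90894756, was entry 248 with a fold of 1.64. The downstream region thus stood far earlier in the authors' order than the one over the promoter. The coverage of 31.3% was reached by 276 genes.

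Il1r1 and Osmr also gained regions with GW4064 in Foxa2-KO livers. Il1r1 had 38 regions in or within 10 kb of the gene, against 3 in WT livers, and 13.9% of its body was covered, against 0.895% in WT livers; 674 genes had as much. Of the 38, 35 lay past the second of its 2 listed start sites, at position 40266586 inside the gene body, beginning 3.17 kb after it. The first-listed region, chr1:40297386-40298140, was entry 81 with a fold of 2.62. At Osmr, 3.03% of the body was covered in Foxa2-KO livers and 0.502% in WT livers, and the region over its start, chr15:6873361-6875159, was entry 359 with a fold of 1.51. Another Osmr region, chr15:6883963-6885261, held the gene's one Foxa2 site. The 10% limit, which Il1r1 passes, was reached by 4.13% of all genes in Foxa2-KO livers and 5.35% in WT livers, where none of the 9 did.

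The other 3 receptor genes and Stat3 had less coverage with GW4064 in Foxa2-KO than in WT livers. Lifr had 0.431% of its body covered in Foxa2-KO livers and 3.39% in WT livers, and Il6ra had 0% in Foxa2-KO livers and 5.69% in WT livers. Il6st had 0.603% in Foxa2-KO livers and 0.858% in WT livers, a near tie, and Stat3 had 0% in Foxa2-KO livers and 4.98% in WT livers. Nfkbia had 0% in both. Over the 9 genes there were 59 gained regions in Foxa2-KO livers and 28 in WT livers, but without Il1r1 there were 21 in Foxa2-KO livers and 25 in WT livers. The whole lists hold 82561 regions in Foxa2-KO livers and 60528 in WT livers. A single region in each list overlapped the other, 1.69% of those in Foxa2-KO livers (3.89% over the whole list) and 3.57% of those in WT livers (5.33%). Any covered base at all was found in 6 of the 9 genes in Foxa2-KO livers (48% of all genes) and 6 in WT livers (43.8%). The median over the 9 genes was 0.603% in Foxa2-KO livers and 0.858% in WT livers, beside a median of 0% over all genes in both. Of the 9 genes 6 are 40 kb or more, and no allowance was made for gene length here. The 2 genotypes were each set against their own vehicle, and the difference between them was not tested.

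With the LXR agonists in WT livers Lifr, Il6ra and Il6st were covered in both comparisons, each with its own vehicle. Lifr had 12.2% of its body covered with GW3965, as much as 1042 genes, and 15.4% with T09, as much as 566 genes. Il6ra had 5.04% with GW3965 and 6.27% with T09, and Il6st 3.9% with GW3965 and 6.15% with T09. Of the 34 regions with GW3965 at the 9 genes 13 overlapped one of the 43 with T09, and 10 of those 13 were at Lifr. That is 38.2% of the GW3965 regions (4.41% over the whole list) and 30.2% of the T09 regions (4.5%). The regions compared differ in width. In the Lifr body their median was 775 bp with GW3965 and 802 bp with T09, against 126 bp and 113 bp over the whole lists. Wider regions overlap more readily, and no allowance was made for width. The region over the leading Foxa2 site of Lifr was chr15:7166448-7169074 with GW3965 (fold 1.25) and chr15:7166287-7169018 with T09 (fold 1.15). The Foxa2 site 13.9 kb into Il6ra and the site 36.7 kb into Il6st also lay in regions gained with both agonists. Osmr, Cxcl1 and Socs3 had 0% with either agonist. Some base of the body was covered in 5 of the 9 genes with GW3965 and 4 with T09, as in 43.6% of all genes with GW3965 and 43.2% with T09. Lifr was past 10% with both, as were 5.69% of all genes with GW3965 and 3.93% with T09.

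Foxa2 peaks at the 9 genes lay in gained regions of the same ligand for 5 of 34 with GW3965 (14.7%, against 25% of all Foxa2 peaks in that list), 4 of 28 with T09 (14.3%, against 3.89%), and 2 of 31 with GW4064 in WT livers (6.45%, against 5.84%). The Foxa2 peaks of WT livers with GW4064 set against the regions gained in Foxa2-KO livers gave 5 of 31 (16.1%, against 2.58%), at Osmr, Cxcl1 and Socs3. Of those 5 peaks, 3 were at Socs3, so the share rests largely on 1 gene.

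The region of 3790 bp at Nfkbia with GW3965, chr12:55490038-55493827, had a fold of 1.13, a q-value of 0.0242 and entry 31009 of 62838. A coverage as high was found for 94 genes. The promoter window of 300 bp lay wholly in a gained region for 3 of the 9 genes, Osmr, Cxcl1 and Socs3, with GW4064 in Foxa2-KO livers (4.29% of 17492 genes with a listed promoter) and for 0 in WT livers (5.96%). It did so for Nfkbia alone with GW3965 (9.31%) and for none with T09 (2.25%). The 250 bases before the listed start of these 4 genes follow, from RefSeq on GRCm38.p6 (mm10), because they are the promoters that the gained regions covered. For Socs3 and Osmr these stretches lie inside the gene body used above. Their listed starts are at 117969366 and 6874313, whereas the minus-strand gene bodies begin at 117970336 and 6874968. Capitals mark TTCNNNGAA, the letters of a Stat site, in Socs3, and a loose form of the NF-kappaB site (GGG, any 5 bases, then CC) on either strand in the other 3, where overlapping matches run together. Socs3 holds the loose form too, as GGGAGGGGCC from -97 to -88, which is left in lower case.
Socs3 promoter: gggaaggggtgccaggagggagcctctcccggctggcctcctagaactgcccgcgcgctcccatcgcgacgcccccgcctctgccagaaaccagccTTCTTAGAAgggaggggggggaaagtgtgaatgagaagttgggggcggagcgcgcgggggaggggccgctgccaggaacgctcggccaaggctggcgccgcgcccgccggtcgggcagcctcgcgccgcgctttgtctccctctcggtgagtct
Cxcl1 promoter: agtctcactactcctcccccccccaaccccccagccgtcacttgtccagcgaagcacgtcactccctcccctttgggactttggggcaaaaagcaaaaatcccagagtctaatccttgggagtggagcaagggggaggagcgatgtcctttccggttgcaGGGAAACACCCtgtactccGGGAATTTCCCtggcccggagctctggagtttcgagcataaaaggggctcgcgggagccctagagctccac
Osmr promoter: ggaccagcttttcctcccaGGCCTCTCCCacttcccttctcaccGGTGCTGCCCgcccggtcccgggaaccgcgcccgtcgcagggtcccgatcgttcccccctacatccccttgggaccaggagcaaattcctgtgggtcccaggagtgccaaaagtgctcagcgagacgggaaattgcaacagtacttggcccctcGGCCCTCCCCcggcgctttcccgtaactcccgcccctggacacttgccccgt
Nfkbia promoter: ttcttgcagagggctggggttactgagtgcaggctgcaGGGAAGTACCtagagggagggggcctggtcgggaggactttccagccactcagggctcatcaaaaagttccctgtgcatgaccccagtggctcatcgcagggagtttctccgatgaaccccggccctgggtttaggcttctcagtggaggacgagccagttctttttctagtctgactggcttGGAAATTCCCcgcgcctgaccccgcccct

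These stretches are chr11:117969367-117969616 for Socs3, chr5:90890995-90891244 for Cxcl1, chr15:6874314-6874563 for Osmr and chr12:55492648-55492897 for Nfkbia, Cxcl1 being on the plus strand and the others on the minus strand. TTCNNNGAA, which reads the same on both strands, was found as TTCTTAGAA from -154 to -146 of Socs3, in 1 of the 11 promoters of the 9 genes and in 7.02% of 32841 mouse promoters. The loose NF-kappaB form was in 8 of the 11 promoters, and in 45.8% of all. The fuller form GGGAATTTCC, added to the search after these letters had been seen, was in 2 of the 11, Cxcl1 at -71 to -62 and Nfkbia at -29 to -20 on the opposite strand as GGAAATTCCC, and in 0.0853% of all promoters. The other full NF-kappaB form searched was in none of the 11 (0.14% of all). The forkhead letters TGTTTAC and TATTTAC were in none of the 11 (3.17% and 2.73% of all), and the nuclear receptor half-site AGGTCA was in 1, at Lifr (14% of all). Positions count back from the start site, and both strands were searched.

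Of 74 other genes of the same pathways, ligands, receptors, kinases, inhibitors and chemokines, Foxa2 was listed at 38 with GW3965 (36.9% of all genes), 41 with T09 (39.2%) and 12 with Veh (12.1%), and at 33 with GW4064 (38.8%) and 17 with GW4064-Veh (17.8%). Jak1, the kinase that serves gp130, had a Foxa2 peak among the first 500 entries of all 5 lists: entry 326 with GW3965, 440 with T09 and 295 with Veh, and 348 with GW4064 and 223 with GW4064-Veh. Among receptors, Il4ra (interleukin-4) was that early with GW3965 (entry 120), Veh (123), GW4064 (324) and GW4064-Veh (355), and Ghr (growth hormone) with T09 (255) and Veh (441). Foxa2 was at 11 of 18 receptors, 10 of 18 feedback inhibitors and 2 of 11 ligands with GW3965, and at 4 of 18, 3 of 18 and 1 of 11 with Veh. Receptor genes were thus reached at a larger share than the cytokine genes in both lists, with no allowance made for gene length.

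FXR was at 0 of the 74 with GW4064 in Foxa2-KO livers (6.8% of all genes) and 19 in WT livers (30.5%), and at 5 with GW4064-Veh in Foxa2-KO livers (7.84%) and 9 in WT livers (13.5%). These counts are near or below the share of all genes in each list. Zfp36, which promotes decay of cytokine mRNAs, had an FXR peak at entry 30 with GW4064 and 48 with GW4064-Veh in WT livers. LXR was at 16 with GW in Foxa2-KO livers (16.3% of all genes) and 18 in WT livers (25.5%), and Nfkbiz, an atypical I-kappaB protein, had an LXR peak at entry 99 with GW and 88 with T09 in Foxa2-KO livers. The gained regions covered 25% or more of 2 of the 74 with GW4064 in Foxa2-KO livers (1.66% of all genes), Tnfrsf1a (43.9%), a receptor of tumour necrosis factor, and Zc3h12a (30.6%), an RNase that degrades cytokine mRNAs. In WT livers they did so for 1 with GW4064, Cxcl12 (34.9%), where 1.94% of all genes passed. With T09 they did so for Cish (38.8%) and Zc3h12a (28.7%), where 1.54% passed, and with GW3965 for none, where 2.26% did.

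Over the 4 comparisons, the genes whose coverage was most like that of Socs3 were Gm52481, Olfr705 and Tmem200b, by Euclidean distance in percentage points (0.404, 1.71 and 1.89). For Cxcl1 they were Nkx2-9, Dlx1 and Krtap7-1 (0.515, 0.776 and 0.892), and for Nfkbia they were Sertad3, Pip4p1 and Apoc1 (0.0698, 0.233 and 0.709). The likeness is one of 4 numbers a gene, 3 of them 0.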

How the data were processed

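The authors mapped reads to mm10 with BWA, per the submitters' processing notes, and called peaks with PeakSeq against input for ChIP-seq and against vehicle for ATAC-seq, per the series' design text. Versions are not given in the sources used here. The deposited lists give positions, with the replicates of a group joined in 1 list. Of 27 deposited lists, 19 give a q-value and run in order of it, and the other 8 (the 5 Foxa2 lists, the FXR lists of WT livers and the ATAC list of WT livers with GW4064) give neither a fold nor a q-value; their entries were taken as ranked in the same way, which the files do not state. The fold is the authors' ratio of signal over control per peak, and the deposited −log10 p-values were not used.

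Gene bodies of 21887 protein-coding genes on the autosomes, X and Y came from RefSeq, GRCm38.p6. Peak centres were counted in gene bodies with 10 kb on either side, the share of each gene body inside gained regions was measured, and Foxa2 peaks that overlapped by at least 1 base were joined to sites (Python 3.11.15, numpy 2.4.6, pandas 2.3.3). The counting was checked on simulated lists. Counts are read beside the share of all genes. No test was made, because each group is 1 list. The 9 genes, the pathway list, the 25% limit and the promoter letters were chosen with earlier results of these data known. The other pathway genes named are those at 25% or more, up to 3 a comparison, or a selection of those with a peak in the first 500 entries of a list. The alternatives were a margin of 5 kb, any overlap in place of the centre, the first 500 entries, limits of 10% and 50%, and the gene body with 10 kb either side. Removal of peaks of 20 bp or less or under 100 bp, the split by gene length and the fuller NF-kappaB letters were added after seeing the data. The RNA-seq samples (37 of 106) and 8 ATAC samples of Foxa2-KO livers with LXR agonists or their vehicles were not used here, so the loss of Foxa2 itself was not checked.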

Additional observations from a re-analysis of the deposited data

How the results depend on the processing

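Of 131 recounts of 27 results, 107 stayed within 1.5 times the reported count and 24 did not. Many of the 107 were counts of 0 that stayed 0, and most of the settings can only lower a count. The total is therefore no measure of how firm the counts are. In the first 500 entries the count was 2 of 9 in each of the 5 Foxa2 lists (1.65% to 1.75% of all genes) and 0 for FXR with GW4064 and GW4064-Veh in WT livers, LXR with GW in Foxa2-KO and WT livers, LXR with Veh in WT livers and PPAR with GW3965 in Foxa2-KO livers. Without peaks under 100 bp, a limit chosen after seeing the data, it was 0 for FXR with GW4064-Veh in WT livers, for LXR with GW in Foxa2-KO and WT livers and with Veh in WT livers, and for PPAR with GW3965 in Foxa2-KO livers. With a margin of 5 kb the PPAR count was 0. The Foxa2 counts stayed within 1.5 times at that margin, but were 7 of 9 with GW3965, T09 and GW4064 and 5 with GW4064-Veh. For gene bodies, GW3965 gave 2 at a limit of 10%, 0 in the first 500 regions and 0 with the gene extended by 10 kb, T09 gave 1 at 10%, and GW4064 in Foxa2-KO livers gave 1 at 50%, 1 in the first 500 regions and 1 with the gene extended. Any overlap in place of the centre, and removal of peaks of 20 bp or less, changed no count by that much. No paired analysis was possible because each group was given as 1 joined list, and for the same reason no replicate could be left out. Depth is not given with the lists, so a gene absent from a list may lie under its limit.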

Other observations

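Osmr and Lifr are neighbours on chromosome 15, with 216 kb and no other protein-coding gene between them. In that interval Foxa2 had 4 peaks with GW3965, 3 with T09 and 0 with Veh, and 4 with GW4064 and 1 with GW4064-Veh. These lists are of unequal length, and each count above 0 includes the Osmr site 10.1 kb before its start. FXR had 1 peak with GW4064 in Foxa2-KO livers (chr15:6950928-6951023, entry 1104, authors' fold 10.9) and 2 in WT livers, 1 of them the 2 bp Osmr peak described above. With GW4064-Veh it had 2 in Foxa2-KO livers, one of them entry 69 (chr15:7059204-7059316, authors' fold 7.98), and 0 in WT livers. Within 10 kb of the 9 genes themselves FXR had no peak in Foxa2-KO livers. Gained regions in it numbered 7 with GW4064 in Foxa2-KO livers and 0 in WT livers, 9 with GW3965 and 8 with T09. Between Cxcl1 and its neighbour Cxcl2, also a neutrophil chemokine, the 10.8 kb held no peak in any ChIP-seq list and 1 gained region each with GW4064 in Foxa2-KO and WT livers, at different positions.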
